A study of Mus musculus with 6 samples.

Results

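The transcripts of the D-box binding factors DBP, TEF, HLF and NFIL3 were examined in whole pituitary glands of Bmal1-/- and wild type mice. Members were all probe sets of the array that its annotation assigns to Dbp, Tef, Hlf or Nfil3 alone. The 4 genes, of 12394 named on the array, had 8 such probe sets of 22690: 2 for Dbp, 3 for Tef, 2 for Hlf and 1 for Nfil3. Glands came from male C57BL/6J mice of 8 to 12 weeks, held under 12 h of light and 12 h of darkness, and were taken at lights off (zeitgeber time 12). Biotin-labelled cRNA was hybridised to 6 Affymetrix 3' expression arrays, 3 labelled Bmal1-/- (replicates 4 to 6) and 3 wild type (replicates 1 to 3), each from a pool of 3 glands of separate animals. The Bmal1 loss is given only as Bmal1-/-, with no allele or driver named. The comparison asks how these clock output factors stand in the gland when BMAL1, the activator that pairs with CLOCK, is missing. With 1 time of day sampled, a changed level and a shifted daily rhythm cannot be told apart, and in bulk tissue the same holds for fewer cells of a type and less RNA per cell.

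DBP, TEF and HLF form the PAR bZIP family, basic leucine zipper proteins with a proline- and acidic-residue-rich domain that bind D-box DNA elements and activate transcription. NFIL3 (also E4BP4) binds the same element but represses. In the clock, CLOCK and BMAL1 drive Dbp and Tef through E-box elements, while the REV-ERB repressors, made by Nr1d1 and Nr1d2, and the ROR activators act on Nfil3 through a shared element. TEF, thyrotroph embryonic factor, was named for its appearance in the developing anterior pituitary, where it was described in rodents as an activator of the thyrotropin beta gene.

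The promoter windows of the factors show which of these elements lie close to their start sites. RefSeq windows of build GRCm38.p6, from 250 bases before to 50 after an annotated start, matched all 4 genes and gave 5 windows, 2 of them for Tef. They were searched on both strands for CACGTG (E-box), CACGTT (an E-box variant), TTANGTAA (D-box) and TAGGTCA (REV-ERB and ROR element). Each Tef window held 1 CACGTG, and the Nfil3 window held 1 TAGGTCA on the opposite strand. The windows of Dbp on chromosome 7 and Hlf on chromosome 11 held none of these letters, which says nothing about sites elsewhere in the genes. Among all 32851 windows, 7.15% held CACGTG, 4.68% CACGTT, 2.32% TTANGTAA and 2.61% TAGGTCA. The 3 matches are shown as 30 bases each, 5′ to 3′ along the gene's strand, with the matched letters in capitals. They lie at chr15:81802534-81802563 and chr15:81811264-81811293 on the plus strand for Tef and at chr13:52981034-52981063 on the minus strand for Nfil3.
Tef, first start: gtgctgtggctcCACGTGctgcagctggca
Tef, second start: cacctggcccagCACGTGtctacatcgttt
Nfil3: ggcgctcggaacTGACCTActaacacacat

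The capitals begin 127 bases before the first Tef start, 138 bases before the second Tef start and 12 bases before the Nfil3 start. The stretch before the first Tef start also overlaps the annotated gene Gm17597. The second Tef window and the Nfil3 window lie within the spans of Tef and Nfil3 themselves, and part of the stretch before the Dbp start lies within Dbp. A D-box, the element that the factors themselves bind, was found in the windows of 2 of the 56 other genes with a window among those listed for comparison, Per3 and Rorb. Per3 held 2, beginning 205 and 158 bases before its start, at chr4:151044852-151044881 and chr4:151044805-151044834 on the minus strand. Rorb held 1 on the strand opposite to the gene's, so that it reads as the reverse complement of TTANGTAA in the line shown. It lies at chr19:19001194-19001223 on the minus strand, with its last base 88 bases before the start. TAGGTCA was found in 1 of these other genes, Arntl, beginning at base 31 from the start site of its second window. CACGTG was found in 11 of these 56 genes, Pdxk among them, and CACGTT in 6. The D-box stretches of Per3, which fell, and of Rorb, which did not pass, are shown.
Per3, farther match: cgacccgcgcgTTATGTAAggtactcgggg
Per3, nearer match: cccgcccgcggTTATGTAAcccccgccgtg
Rorb: ctctttcacccTTACTTAAtgaaacgaagc

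**Figure D1:**
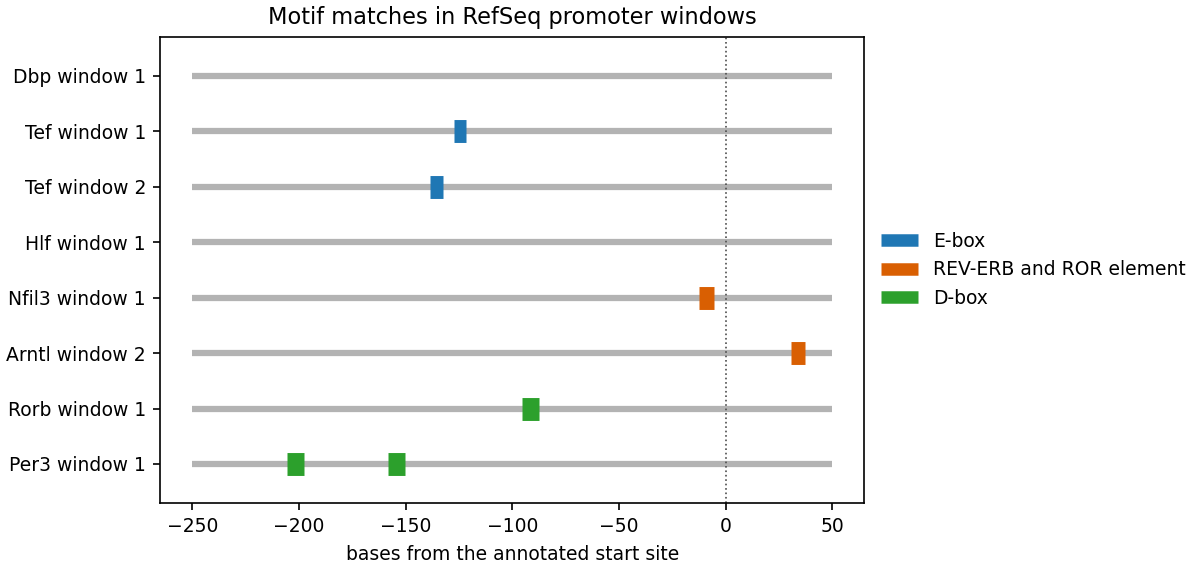
Positions of matches to the E-box, D-box and REV-ERB and ROR element in RefSeq promoter windows (grey bars, 250 bases before to 50 after the start site, dotted line), for the 5 windows of the 4 factors and the windows of 3 other listed genes with a D-box or TAGGTCA match. Each Tef window holds 1 E-box, the Nfil3 window holds 1 REV-ERB and ROR element, and Per3 holds 2 D-boxes.

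The arrays themselves were alike. Arrays of 1 genotype correlated at 0.980 to 0.986 (Pearson's r over 13576 tested probe sets), and arrays of different genotypes at 0.970 to 0.976. The number of arrays limits the precision. Arntl, which encodes BMAL1, read 112.1, 102 and 127.5 on the arrays labelled Bmal1-/- and 39.6, 51.7 and 38.6 on the wild type arrays, a difference of 1.13 on the log2 scale (SE 0.14, adjusted p = 0.000653 in limma). That goes against a loss of the transcript. No source used here says whether its probes lie in the deleted stretch, and probes outside that stretch check nothing. Directions below are therefore those of arrays labelled Bmal1-/-. All 7 measured endocrine markers of the anterior lobe were bright enough to be tested, among them Gh, Prl and Pomc, so the tissue matched its label. Their summed intensity was 55221 to 58054 on the arrays labelled Bmal1-/- and 61039 to 69435 on wild type arrays, without overlap. Of the 7, Gh (-0.27 on the log2 scale, adjusted p = 0.0217) and Cga were called lower, and the other 5 did not pass, with Lhb at 0.18. The Gh call was lost without Bmal1-/- replicate 5 or 6 or wild type replicate 1 or 3 (highest adjusted p = 0.0996). Quantile normalization gives values of equal rank the same level on every array. It left Gh with no difference (log2 fold change -2.63e-15) and so cannot check this call.

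Dbp fell furthest of the 4 factors. The probe set 1438211_s_at read 58.5, 80.5 and 66.9 on the arrays labelled Bmal1-/- and 375.2, 490.5 and 455 on the wild type arrays. Every Bmal1-/- value lay below every wild type value, by a wide margin. The means were 68.6 ± 11.1 and 440 ± 59.1 (SD, n = 3 each), which differ 6.41-fold on the linear scale. On log2(intensity + 16), the scale of all fold changes here, the log2 fold change was -2.43 (SE 0.13, limma adjusted p = 8.81e-07). The other Dbp probe set, 1418174_at, read 49.9, 50.3 and 31 in the Bmal1-/- pools and 214, 284.4 and 248.8 in wild type pools. It too showed no overlap, and fell by 2.16 on the log2 scale (SE 0.15, adjusted p = 1.22e-05). By absolute size these changes ranked 5 and 7 among the 13576 tested probe sets, so the Dbp transcript was among the largest differences on the array by either probe set.

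Tef, the second PAR bZIP activator, fell less. Its brightest probe set, 1424175_at, read 195.2, 201.9 and 183.8 on the arrays labelled Bmal1-/- and 323.9, 349.1 and 420.4 on the wild type arrays. The Bmal1-/- values were close together and all lay below wild type, with means of 194 ± 9.15 and 364 ± 50.1. The log2 fold change was -0.85 (SE 0.10, adjusted p = 0.000737, 95% interval -1.08 to -0.62). The other Tef probe sets were dimmer, and both lay lower in Bmal1-/-. The values of 1450184_s_at were 16.5, 20.6 and 10.7 in the Bmal1-/- pools and 38.3, 44.8 and 47.2 in wild type pools (log2 fold change -0.91, SE 0.16, adjusted p = 0.00825). The probe set 1438033_at read 6.2, 9.5 and 10.1 in the Bmal1-/- pools and 25.3, 32.1 and 28.4 in wild type pools. It was too dim on average to be among the 60% of probe sets tested, and its genotypes did not overlap either. MAS5 values this low are noisy, so the sizes of change at the dim Tef probe sets cannot be ranked against that of 1424175_at, and no source used here says which Tef start each probe set reports.

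Hlf, the third PAR bZIP activator, did not follow Dbp and Tef. The probe set 1434736_at read 235.1, 302.9 and 305.5 on the arrays labelled Bmal1-/- and 144.9, 197.6 and 196.3 on the wild type arrays. All Bmal1-/- values were above all wild type values, with means of 281 ± 39.9 and 180 ± 30.1. It rose by 0.61 on the log2 scale, with a 95% interval of 0.32 to 0.90 (SE 0.13, adjusted p = 0.0224). The second Hlf probe set, 1434735_at, read 150.9, 124.5 and 156 in the Bmal1-/- pools and 101, 133.7 and 108.2 in wild type pools. Here Bmal1-/- replicate 5 lay below wild type replicate 2, so the genotypes overlapped, and the log2 fold change of 0.30 (SE 0.13, 95% interval 0.02 to 0.57) did not pass (adjusted p = 0.204). The intervals of the Hlf probe sets overlap each other and both lie above 0, whereas those of all tested Dbp and Tef probe sets lie below 0. The intervals are not adjusted for the number of probe sets tested, so that of 1434735_at does not make up for its failed call. The call of 1434736_at is the least firm of the factors: it ended without wild type replicate 1 (log2 fold change 0.47, adjusted p = 0.0688), without Bmal1-/- replicate 5 (0.55, 0.0899) or without Bmal1-/- replicate 6 (0.54, 0.0850), with all probe sets tested (adjusted p = 0.0661) and with a variance model that has no intensity trend (0.0729).

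Nfil3, the repressor of D-box genes, rose. Its only probe set, 1418932_at, read 127.1, 164.7 and 182.8 on the arrays labelled Bmal1-/- and 51.6, 58.3 and 62.5 on the wild type arrays. The lowest Bmal1-/- value was more than the highest wild type value by a gap wider than the spread of either genotype. Means were 158 ± 28.4 and 57.5 ± 5.50, which differ 2.75-fold. The log2 fold change was 1.23 (SE 0.14, adjusted p = 0.000342) and ranked 36 by absolute size among all tested probe sets.

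**Figure D2:**
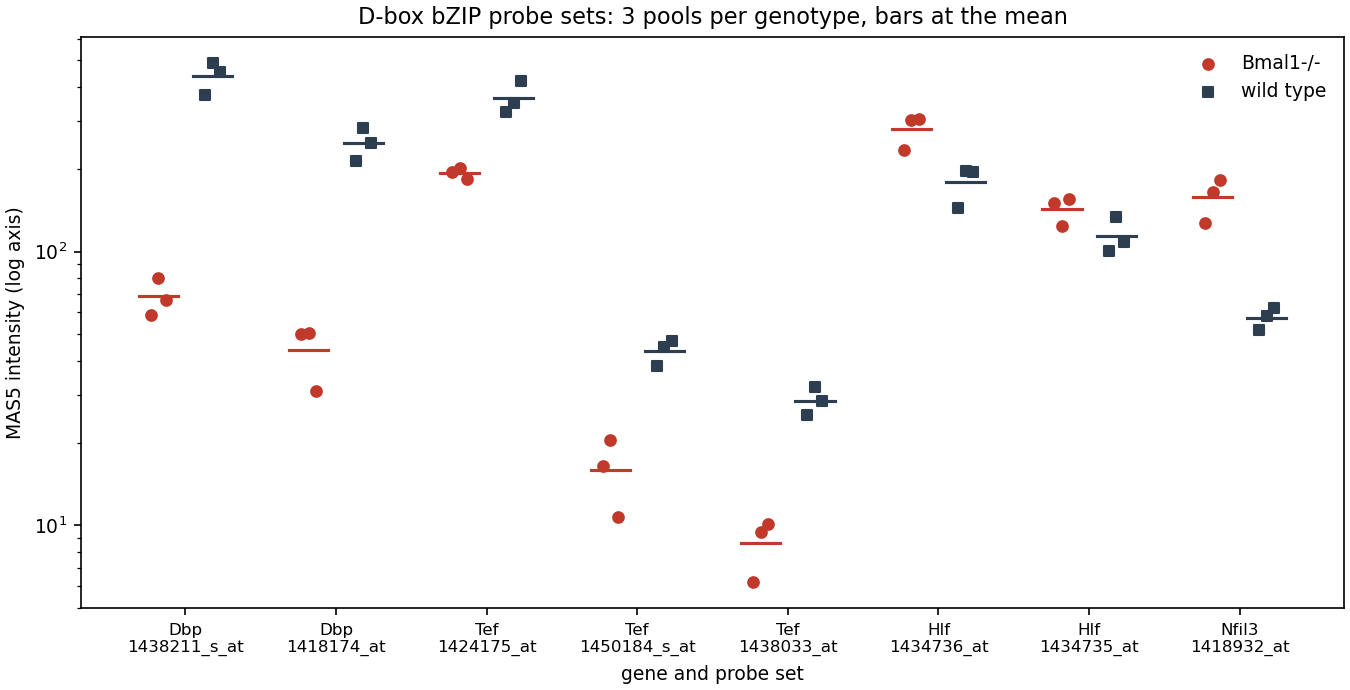
MAS5 intensity (log axis) of the 8 probe sets of Dbp, Tef, Hlf and Nfil3 on each array, with Bmal1-/- pools as red circles, wild type pools as dark squares and a bar at each mean (n = 3 each). The Bmal1-/- values lie below wild type at all 5 Dbp and Tef probe sets, above it at Nfil3 and Hlf 1434736_at, and overlap it at Hlf 1434735_at.

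Of the 8 probe sets, 7 were tested: 4 fell, 2 rose and 1 did not pass. Over all tested probe sets, 5.54% changed, 2.78% lower and 2.75% higher in Bmal1-/-. At 7 of the 8 member probe sets the genotypes were apart, 5 with Bmal1-/- below and 2 with Bmal1-/- above. The same held at 25.9% of all tested probe sets, 13.3% with Bmal1-/- below and 12.6% above. Since Tef 1450184_s_at averaged only 15.9 in the Bmal1-/- pools, it was tested through its wild type level, and the counts are an account of the members rather than support for a shared change.

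**Figure D3:**
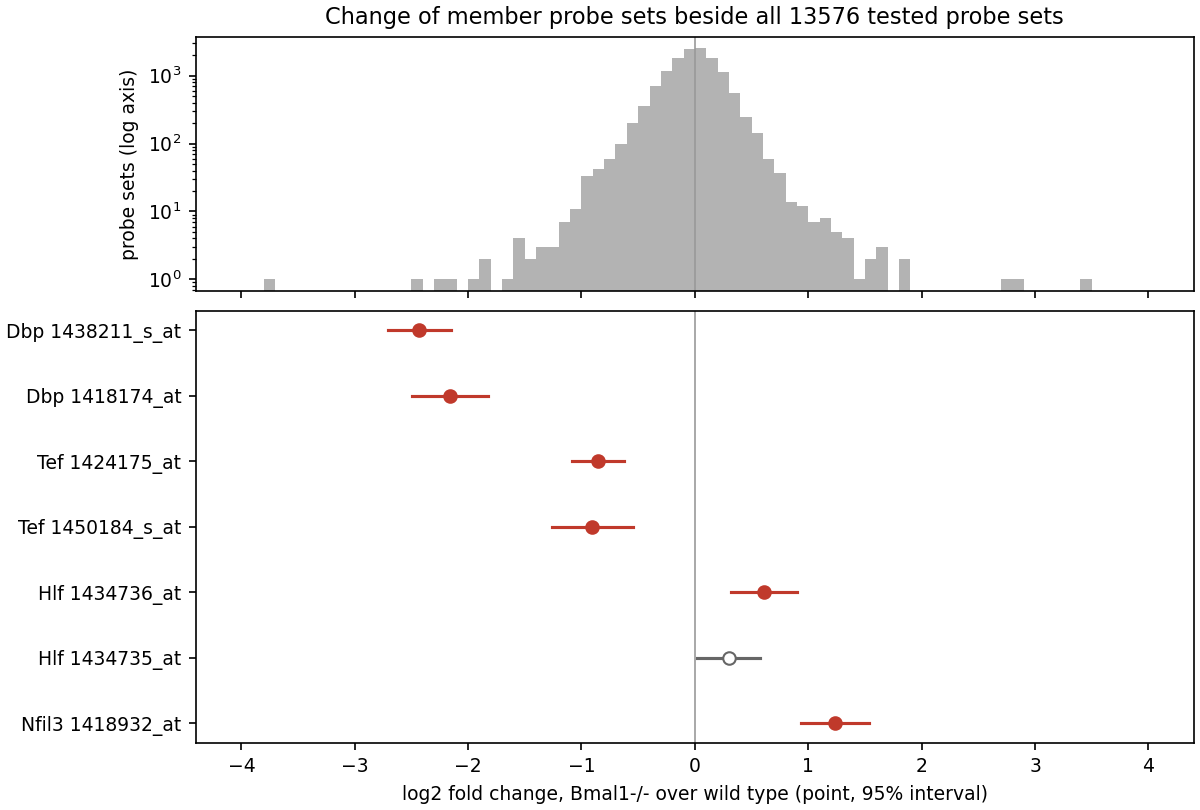
Log2 fold change of the 7 tested member probe sets, Bmal1-/- over wild type, with 95% intervals (filled red where the limma adjusted p is under 0.05, open otherwise), under a histogram of all 13576 tested probe sets (log count axis). Dbp at -2.43 and -2.16 lies in the far lower tail, Tef near -0.9, Hlf at 0.61 and 0.30, and Nfil3 at 1.23 on the upper side.

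The opposite changes meant that the balance of the factors differed in each array labelled Bmal1-/-. Taking for each gene its brightest probe set and setting the wild type mean to 0, the log2 level of Nfil3 minus that of Dbp was 3.57, 3.53 and 3.89 on the arrays labelled Bmal1-/- and 0.10, -0.14 and 0.04 on the wild type arrays. Against Tef, the Nfil3 difference was 1.81, 2.10 and 2.36 in the Bmal1-/- pools and 0.04, 0.07 and -0.11 in wild type pools. The repressor thus gained on both of these activators in each Bmal1-/- pool. Nfil3 minus Hlf moved least, at 0.63 ± 0.07 in the Bmal1-/- pools against a wild type SD of 0.14. Among the activators the changes were also unequal. Hlf minus Dbp averaged 3.04 ± 0.13, Tef minus Dbp 1.58 ± 0.17 and Hlf minus Tef 1.46 ± 0.22 in the Bmal1-/- pools, with wild type SDs of 0.07, 0.19 and 0.17 about 0. No genotype overlap occurred in any of the 6 pairs. For pairs that moved in opposite directions this was fixed beforehand, because the genotypes were already apart at the probe set of each gene. The pairs also share genes, so they are not separate observations. These differences describe unequal change within an array and carry no test, because the factors were chosen with their results known.

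**Figure D4:**
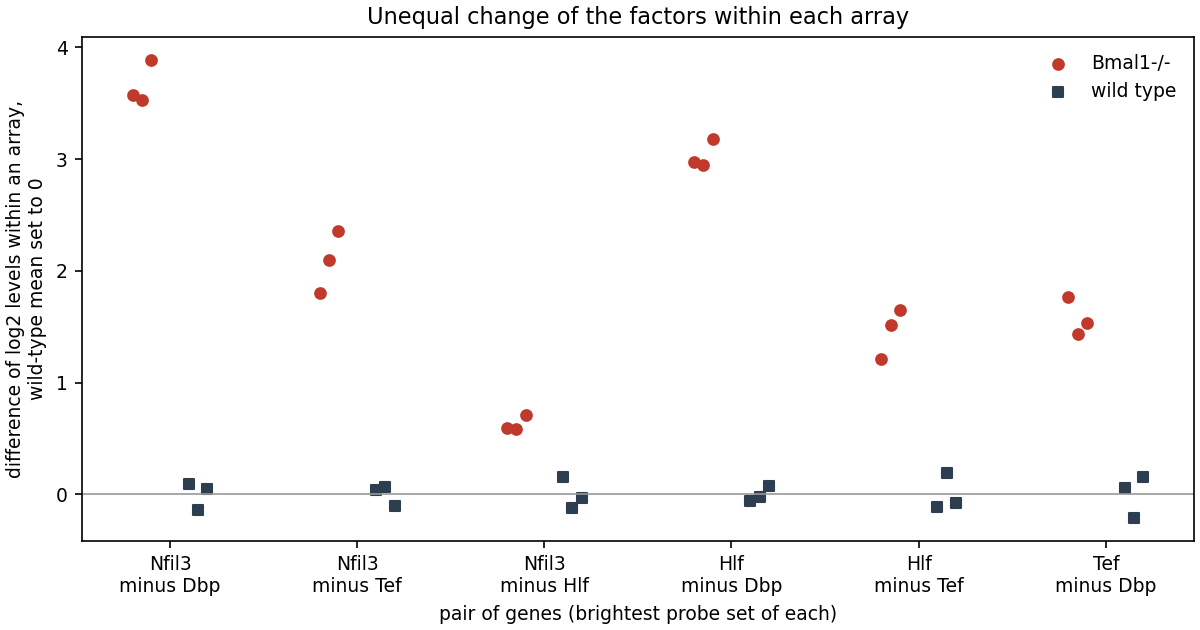
Difference of log2 levels between each of the 6 pairs of factors within an array (brightest probe set of each gene, wild type mean set to 0), with Bmal1-/- pools as red circles and wild type pools as dark squares. Nfil3 minus Dbp is 3.53 to 3.89 in Bmal1-/- pools, and Nfil3 minus Hlf is the smallest shift, at 0.58 to 0.71.

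Genes upstream of the factors changed in both directions. Of 15 listed regulators that act at E-boxes or at the REV-ERB and ROR element, 12 were tested, of which 4 rose, 3 fell and 5 did not pass, and the median log2 fold change was 0.00, as over all tested genes. With 1 probe set per gene, 5.66% of all tested genes changed, 3.00% upward and 2.66% downward. The REV-ERB genes fell. Nr1d1 read 3.6, 9.3 and 2.6 in the Bmal1-/- pools and 68.5, 57.9 and 69.5 in wild type pools (log2 fold change -1.95, SE 0.17). Nr1d2 read 63.8, 91.5 and 79.9 in the Bmal1-/- pools and 1083.4, 1309.8 and 1424.7 in wild type pools (-3.77, SE 0.13). A dimmer Nr1d2 probe set, tested through its wild type level, fell less (-1.83, SE 0.18). Its means were 3.63 in the Bmal1-/- pools and 54.0 in wild type pools. The opposing activators Rora and Rorb stood at -0.003 each (SE 0.12 and 0.16), values whose sign turned under other scalings. Another tested Rora probe set, about as bright, was at -0.31 and did not pass (SE 0.17, adjusted p = 0.325). The genes that rose were Arntl (1.13, SE 0.14), Clock (0.70) and Npas2 (2.81), which encode activators of E-box genes, and Cry1 (1.89), which encodes a repressor of them. Npas2 read 134.5, 110.9 and 111.3 in the Bmal1-/- pools and 3.2, 6.6 and 0.2 in wild type pools. Npas2 was tested through its Bmal1-/- level and Nr1d1 through its wild type level, so the list counts are an account only. Pseudocounts of 1 and 64 gave 5.15 and 1.44 for Npas2 and -3.57 and -0.90 for Nr1d1. Per1 fell (-0.53, SE 0.13, adjusted p = 0.0393), a call that ended with the omission of any array other than wild type replicate 2 (adjusted p up to 0.138, reached by omitting wild type replicate 3).

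Several clock genes known to carry D-boxes fell. Of 9 listed, 8 were tested: 4 fell, 1 rose and 3 did not pass, with a median log2 fold change of -0.53 against 0.00 over all tested genes. As given above, 2.66% of all tested genes fell and 3.00% rose. Many of them are also driven through E-boxes, and 7 of the 9 are in the preceding list as well. Per3, a period protein gene whose window holds the D-boxes shown above, read 26.7, 21.7 and 25.4 in the Bmal1-/- pools and 80.9, 103.6 and 124.7 in wild type pools. Its genotypes were far apart (log2 fold change -1.54, SE 0.16, adjusted p = 0.000152). Rorb, the other gene with a D-box match, read 38.3, 40.5 and 53.7 in the Bmal1-/- pools and 37.6, 55.5 and 40.2 in wild type pools, a full overlap. Cry1, a repressor of the core loop, was the member that rose. Per2 did not pass (-0.54, SE 0.22, adjusted p = 0.187).

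Among metabolic genes that depend on the PAR bZIP factors in other mouse tissues, 1 of 3 tested fell, beside 2.66% of all tested genes. Most of this list, 7 of the 10 genes on the array, was too dim in the pituitary to be tested, including the liver genes Cyp7a1 and Cyp2b10. Pdxk, pyridoxal kinase, which makes the active form of vitamin B6 and is reduced in mice without DBP, TEF and HLF, read 178.2, 154.8 and 187.8 on the arrays labelled Bmal1-/- and 294, 340.4 and 402.8 on the wild type arrays. Every Bmal1-/- pool was below every wild type pool, with means of 174 ± 17.0 and 346 ± 54.6. Pdxk fell by 0.93 on the log2 scale (SE 0.12, adjusted p = 0.000994), and 2 further Pdxk probe sets were too dim to test. The promoter window of Pdxk held 1 CACGTG and no D-box match. Whether its fall runs through the PAR bZIP factors or through an E-box was not tested. Alas1, the first enzyme of haem synthesis, had a log2 fold change of -0.07 (SE 0.10). Acot1, an acyl-CoA thioesterase, read 31.3, 57.5 and 46.8 in the Bmal1-/- pools and 25.2, 23.9 and 18.2 in wild type pools. Its log2 fold change of 0.65 (SE 0.18) did not pass (adjusted p = 0.0545), though it did without Bmal1-/- replicate 4 (adjusted p = 0.0295).

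Among genes of thyrotrophs, the cells after which TEF is named, its described target Tshb did not pass. Tshb, the thyrotropin beta subunit, read 3755.9, 4102.2 and 3387.4 in the Bmal1-/- pools and 3638.3, 3856.5 and 4048.2 in wild type pools. The genotypes overlapped fully, with a difference of -0.04 on the log2 scale (SE 0.08, 95% interval -0.21 to 0.12, adjusted p = 0.814) whose sign turned under other scalings. Eya3, a coactivator paired with TEF at the Tshb gene in the sheep pars tuberalis, was at -0.17 (SE 0.18, adjusted p = 0.641). Of 6 tested thyrotroph genes 1 rose, 1 fell and 4 did not pass, with a list median of -0.10. The shares over all tested genes were 3.00% higher and 2.66% lower. Dio2, the deiodinase that makes active thyroid hormone, read 420, 452.3 and 441.9 in the Bmal1-/- pools and 169.2, 220.2 and 196.4 in wild type pools (1.11, SE 0.10, adjusted p = 6.94e-05). Another of its probe sets rose (0.89, SE 0.13) and the dimmest did not pass (0.54, adjusted p = 0.101). Cga, the shared alpha subunit, fell slightly (-0.31, SE 0.07, adjusted p = 0.0190), a call lost without wild type replicate 3, Bmal1-/- replicate 4 or Bmal1-/- replicate 6 (highest adjusted p = 0.0834). Its difference was -0.04 after quantile normalization (adjusted p = 0.664), a scaling that evens out the brightest probe sets across arrays.

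Among other bZIP genes, 2 of 11 tested C/EBP and stress-response genes fell and none rose, with a median log2 fold change of -0.03. Over all tested genes, 2.66% fell. Cebpb, which binds sites related to the D-box, averaged 175 ± 61.8 in the Bmal1-/- pools and 315 ± 71.1 in wild type pools (-0.82, SE 0.20, adjusted p = 0.0325), but its second probe set did not pass (-0.43, adjusted p = 0.163). Nfe2l2, which encodes the antioxidant regulator NRF2, fell by 0.36 (SE 0.09, adjusted p = 0.0355). Its call was lost without any array but wild type replicate 2 (highest adjusted p = 0.131), and that of Cebpb on omitting Bmal1-/- replicate 4, Bmal1-/- replicate 6, wild type replicate 1 or wild type replicate 3 (adjusted p up to 0.138). Cebpd and Cebpg did not pass, at -0.22 and -0.26. The probe sets of Atf4, a stress-response factor, disagreed: the brightest was at -0.03 (adjusted p = 0.908), while a dimmer one passed at -0.52 (adjusted p = 0.0441). Of 10 tested CREB and AP-1 genes 1 fell and none rose, with a median of -0.16. It was Creb3l1, a factor anchored in the endoplasmic reticulum membrane, at 33.4 ± 2.69 in the Bmal1-/- pools and 71.1 ± 13.9 in wild type pools (-0.81, SE 0.15, adjusted p = 0.00889). No gene of these 2 bZIP lists reached the change of Dbp or Nfil3 on the log2 scale. The same does not hold for the other factors: Cebpb (-0.82) and Creb3l1 (-0.81) changed about as much as Tef (-0.85) and more than Hlf (0.61).

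**Figure D5:**
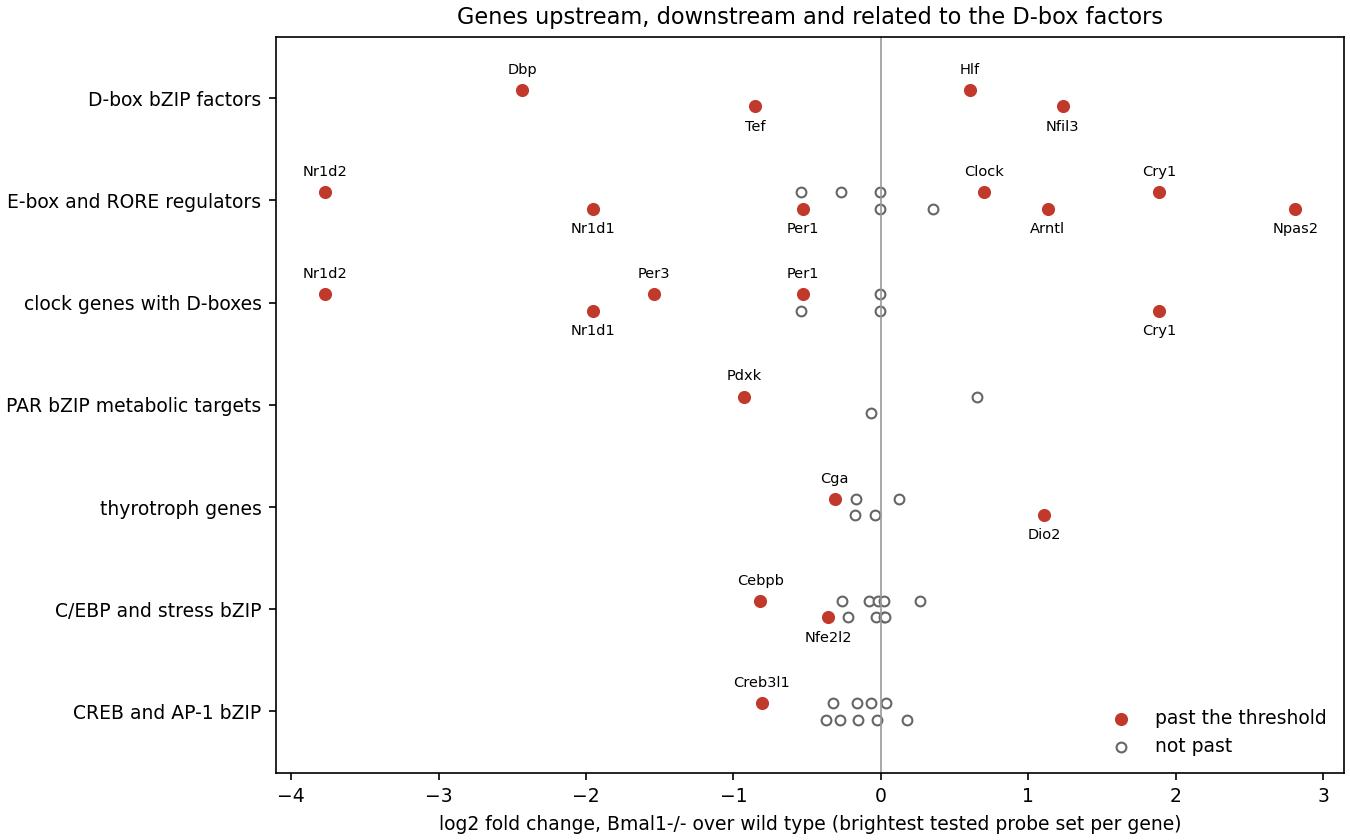
Log2 fold change, Bmal1-/- over wild type, of the tested genes of 7 lists (1 dot per gene, its brightest tested probe set), with genes past a limma adjusted p of 0.05 filled and named. The 4 factors span -2.43 to 1.23, the regulators span -3.77 to 2.81, and the other bZIP lists lie between -0.82 and 0.27.

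The genes whose array profiles lay closest to each factor were found among 8029 other genes, by the root mean square difference of log2 levels over the 6 arrays after centring each gene on its own mean. Closest to Dbp were Nr1d1 (difference 0.30), the carboxylesterase gene Ces1d (0.42) and the adhesion gene Ceacam10 (0.44). Closest to Tef were Gal, the neuropeptide galanin (0.05), Prodh, proline dehydrogenase (0.09), and Tgm2, transglutaminase (0.09). Gal averaged 26.8 ± 1.83 in the Bmal1-/- pools and 66.0 ± 12.2 in wild type pools. Closest to Hlf were Cgnl1, a cell junction gene that rose (0.65, SE 0.14, a call lost on omitting any of the same 3 arrays as for Hlf), and Bcl2l11 and Banp, which did not pass. Closest to Nfil3 were the contactin gene Cntn1 (0.15), Dio2 (0.15) and Parm1 (0.17). The order depends on the added 16, above all for genes whose Bmal1-/- level is near the bottom of the scale, such as Nr1d1 (mean 5.17), Ces1d (7.90) and Prodh (10.9). With pseudocounts of 1 and 64, tried after the data were seen, Ceacam10 for Dbp, Tgm2 for Tef, Cgnl1 and Bcl2l11 for Hlf and Dio2 for Nfil3 were among the 3 closest in both. The other 7 were not: Nr1d1 ranked 8 and 7, Gal 37 and 13, and Prodh 1777 and 29. Over 6 arrays in 2 genotypes a like profile and a like genotype difference cannot be told apart.

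Markers of other cells were set beside these changes. The 7 measured of 8 lymphoid and myeloid markers, cells in which NFIL3 is well known, summed to 187.5 to 234.1 on the arrays labelled Bmal1-/- and 285.6 to 318.2 on wild type arrays. None of the 4 that were bright enough to be tested was called: Csf1r (-0.43, adjusted p = 0.0639), Lyz2 (-0.50, adjusted p = 0.0822), Ptprc (-0.08) and Cd68 (-0.08). Csf1r read 62.8 to 69.8 in the Bmal1-/- pools and 82.5 to 102.8 in wild type pools, without overlap. Cd3e, which defines T cells, was too dim to test and read between 1.3 and 7.9 on every array. The 5 folliculostellate and stem cell markers summed to 722.2 to 779.2 in the Bmal1-/- pools and 552 to 686.7 in wild type pools, but the markers did not move together. Aldh1a2 was called higher (0.58, adjusted p = 0.00836), at 472.6 to 501.4 in the Bmal1-/- pools and 289 to 384.6 in wild type pools. Sox2 (0.05), Sox9 (0.19) and Aldh1a1 (-0.12) did not pass, and the untested S100b read 0.4 to 7 in the Bmal1-/- pools and 11.1 to 13.8 in wild type pools. The 6 measured of 7 posterior lobe markers summed to 293.3 to 323.2 in the Bmal1-/- pools and 285 to 424.5 in wild type pools. Of the 4 tested, Mbp was called higher (0.52, adjusted p = 0.0210), a call lost without Bmal1-/- replicate 4 or 5 or wild type replicate 3 (highest adjusted p = 0.0838). Oxt (-0.57, adjusted p = 0.0565) and Nefm (-0.51, adjusted p = 0.0684) did not pass but lay lower in every Bmal1-/- pool than in any wild type pool, and Nefl was at -0.24. Summed endothelial and red blood cell markers overlapped between genotypes, and none of the 4 endothelial markers and the 1 red blood cell marker tested was called. No marker was at 0 on all arrays. The part of these differences in the changes of the 4 factors was not tested.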

How the data were processed

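The deposited values are linear intensities, 1 for each probe set on each array. The authors made them with MAS5, per the submitters' processing notes. Not given in the sources used here are its version, target value and detection calls. Every array has the same mean after trimming 2% from each end. MAS5 subtracts a mismatch background, so low values are noisy. Of 22690 probe sets, 64 are controls. Platform annotation names 1 gene for 20393, several for 691 and none for 1606.

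Values were taken as log2(intensity + 16), and the brightest 60% of probe sets by mean level (13576, the dimmest at a level equal to 17.3) were tested with limma 3.58.1 (two-sided, lmFit and trended eBayes) run in R 4.3.3, adjusted by Benjamini-Hochberg at 0.05. Folds on this scale understate changes of dim genes. The median SE was 0.13. No normalization was added. Per gene, the brightest tested probe set was used. The fit was tested on simulated data. Members and gene lists were chosen with earlier results of these data known. Named were all member probe sets, Arntl, 3 nearest profiles per factor and list genes past the threshold. Alas1, Acot1, Tshb, Eya3, Rora, Rorb, Per2, Cebpd and Cebpg, a few markers and untested genes were picked with their values in view. Other settings tried were pseudocounts of 1 and 64, quantile or median scaling, no filter or the top 40%, no trend, robust estimation, array weights, averaged probe sets and each array left out, and, added after the data were seen, pseudocounts of 1 and 64 for the nearest profiles. No array was a copy of another (at most 0.302% identical values).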

Additional observations from a re-analysis of the deposited data

How the results depend on the processing

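The changes of Dbp 1438211_s_at and 1418174_at, Tef 1424175_at and 1450184_s_at and Nfil3 kept their direction and passed the threshold in every alternative in which they were tested. Leaving out 1 array gave log2 fold changes of -2.54 to -2.34 and -2.26 to -2.00 for these Dbp probe sets, -0.93 to -0.75 and -1.01 to -0.78 for these Tef probe sets and 1.13 to 1.37 for Nfil3. Hlf 1434736_at stayed above 0 (0.47 to 0.72 with 1 array left out), but its call ended with no filter on low values or no intensity trend (log2 fold change 0.61 in both, adjusted p = 0.0661 and 0.0729) and on omitting wild type replicate 1, Bmal1-/- replicate 5 or Bmal1-/- replicate 6. With the probe sets of a gene averaged, Hlf passed at 0.45 (adjusted p = 0.0306). Hlf 1434735_at passed in none of its 15 alternatives, at 0.22 to 0.40. The dim Tef 1438033_at, at -0.86 with no test, was tested and fell in 5 alternatives: with no filter (-0.86, adjusted p = 0.0319), with a pseudocount of 64 (-0.35, adjusted p = 0.0101) and without Bmal1-/- replicate 4, 5 or 6 (-0.90 to -0.79). The filter used the mean of the arrays kept, so omitting a Bmal1-/- array let this probe set in through its wild type level. It was not tested when a wild type array was omitted, and the calls without a Bmal1-/- array add no support. The pseudocount sets the size of low folds: Tef 1450184_s_at was -1.43 with 1 and -0.43 with 64. The count of changed probe sets, 752 of 13576, was 330 with no filter, 407 with no intensity trend and 314 to 950 with 1 array left out (314 without wild type replicate 3, 329 without Bmal1-/- replicate 5, 410 without replicate 6 and 425 without Bmal1-/- replicate 4 or wild type replicate 1). Genes near 0 that passed in no alternative turned sign: Tshb was 0.033 after quantile normalization and 0.019 with equal medians, Rora 0.017 and 0.057, and Rorb 0.037 and 0.056. With 1 array left out Tshb lay between -0.107 and 0.030, Rora between -0.048 and 0.066, Rorb between -0.114 and 0.124, and Eya3 between -0.261 and 0.0085. The calls of Per1, Cga, Gh, Cebpb, Nfe2l2 and Cgnl1 also ended with no filter and with no intensity trend, those of Per1 and Nfe2l2 with equal medians and that of Cebpb with robust estimation. List counts followed these calls: 2 D-box clock genes fell with the top 40% tested, which leaves out dim genes, against 4 in the main setting and 3 or 4 elsewhere, and 0 or 1 C/EBP and stress genes fell in 9 settings, against 2. CREB and AP-1 genes that fell numbered 0 with the top 40% and 2 without Bmal1-/- replicate 4, against 1. Equal medians moved the median of all probe sets to 0.05. Alas1 was 0.045 and Rora -0.158 with the probe sets of a gene averaged. Acot1 passed after quantile normalization (0.72), with equal medians, robust estimation, array weights or averaged probe sets, and without Bmal1-/- replicate 4. No paired analysis was possible because the genotypes share no replicate numbers (4 to 6 for Bmal1-/-, 1 to 3 for wild type). The cause of the lost calls was not tested, and fits without an array also have fewer arrays.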
